A study of Mus musculus with 6 samples.

Results

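Leukocyte integrins and their adhesion ligands are described here in whole livers of mice fed a high-fat high-cholesterol diet, a model of steatohepatitis. The list holds 9 of the 17119 gene symbols in the count table: the integrin chain genes Itgb2, Itgal, Itgam, Itga4 and Itgb7, the selectin ligand gene Selplg, and the vascular ligand genes Vcam1, Icam1 and Icam2. All 9 were in the table, and all 9 passed the filter on low counts, as did 12706 genes in all. The genes were chosen by function and by their counts in this comparison, since the CPM values and fold changes between the genotypes were known from earlier results when the list was made. The difference between the genotypes is therefore given for these genes as a description and not as a test.

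The heterozygous livers (labelled Hete) carried 1 floxed and 1 normal Cebpb allele with the Cre driver Clec4f-iCre, genotype Clec4f-iCre;Cebpbfl/+. The wild-type livers (WT) came from littermates with the same driver and both Cebpb alleles intact, Clec4f-iCre;Cebpb+/+. All mice had received the diet for 12 weeks, and each group had 3 samples of whole liver. Clec4f is a lectin gene of Kupffer cells, the macrophages resident in the liver, so the driver is aimed at these cells, while the RNA came from all cells of the organ. Cebpb encodes the transcription factor C/EBPβ. Age and sex are not among the labels used here. For replicates 2 and 3 of both groups the genotype label reads Clec5f-iCre and Clec6f-iCre, which differs from the design text of the study; the design text was followed. The question behind the comparison is what the loss of 1 Cebpb copy in Kupffer cells does to the liver on this diet.

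Circulating leukocytes enter tissue in steps. Selectins catch sialylated, fucosylated glycans such as those on PSGL-1 and let the cell roll, chemokines then switch integrins on the leukocyte to a binding state, and the integrins hold on to ligands of the immunoglobulin family on the endothelium. Integrins are dimers of an α and a β chain. The β2 chain pairs with αL to form LFA-1 and with αM to form Mac-1, which bind ICAM proteins, and the α4 chain pairs with β1 to form VLA-4, the receptor of VCAM-1, or with β7 to form the receptor of the gut addressin MAdCAM-1. In liver, sinusoidal endothelium carries ICAM-1 also at rest, and macrophages of the mouse can carry VCAM-1.

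The letters before the start sites of these genes were looked at for motifs of transcription factors known from leukocyte and inflammatory genes. A RefSeq table of the build GRCm38.p6, older than the build GRCm39 used for the counts, held start regions for 4 of the 9 genes: Itgam, Itga4, Itgb7 and Icam1. The 250 bases before the RefSeq start are shown for Icam1, which held a match to an NF-κB motif, and for Itgam, which held a match to an ETS motif, the family of the myeloid factor PU.1. Capitals mark the matches, and letters run 5′ to 3′ on the strand of the gene, which is the plus strand for both, at chr9:21015690-21015939 for Icam1 and chr7:128062390-128062639 for Itgam.
Icam1: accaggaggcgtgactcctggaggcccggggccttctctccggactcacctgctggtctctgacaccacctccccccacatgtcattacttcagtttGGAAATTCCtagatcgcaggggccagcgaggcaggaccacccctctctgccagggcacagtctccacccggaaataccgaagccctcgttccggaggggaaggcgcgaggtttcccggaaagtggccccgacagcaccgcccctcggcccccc
Itgam: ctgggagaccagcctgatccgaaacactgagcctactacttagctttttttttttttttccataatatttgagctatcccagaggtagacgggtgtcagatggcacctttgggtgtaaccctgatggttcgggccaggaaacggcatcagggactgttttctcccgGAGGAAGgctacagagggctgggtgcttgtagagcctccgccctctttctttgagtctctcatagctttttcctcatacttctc

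In Icam1 the match to GGAAATTCC lay at bases -153 to -145 from the RefSeq start, which, unlike the starts of the other 3 genes, matched no transcript start in GENCODE M21, and 0.286% of 32851 start regions of the same length held this motif on either strand. In Itgam the match to GAGGAAG lay at -84 to -78, and 10.6% of start regions held it. A second NF-κB form (GGG, any 2 bases, then TTTCC) was found in 1.41% of start regions, and the C/EBP motif TTGCNNAA in 9.56%. No match to any of these 4 motifs was found in the windows of Itga4 or Itgb7, and no C/EBP match in the windows of Icam1 or Itgam. A match is a run of letters and was not tested for binding.

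Libraries held 16895322 to 17750755 counts, every wild-type library being slightly deeper. Levels are given in CPM, for which each count was divided by the library's total and its TMM factor. Wild-type replicate 1 stood apart from its group, with a chi-square per degree of freedom of 83.6 and 65.6 against the other wild-type libraries, which differed from each other by 22.1. It was nearest to heterozygous replicate 2 (49.1). Heterozygous libraries differed from each other by 32.1 to 56.6, and heterozygous replicate 3 was nearer to wild-type replicate 3 (23.2) than to its own group. Over all genes the libraries thus did not group by genotype on this measure. The targeted gene Cebpb measured 204, 498 and 269 CPM in heterozygous replicates 1 to 3, against 506, 308 and 340.4 CPM in the wild-type replicates, so the groups overlapped and whole-liver Cebpb RNA checks the labels only weakly. Clec4f measured 4.31, 4.97 and 3.90 CPM in heterozygous livers, against 48.6, 38.5 and 5.42 CPM in wild-type livers, where replicate 3 lay near the heterozygous level. Of the 8 listed hepatocyte markers 7 were in the table, and their summed level was 107876 to 135374 CPM in heterozygous and 98222 to 141687 CPM in wild-type libraries, as whole liver should show.

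For 8 of the 9 genes every heterozygous library lay below every wild-type library. Of all tested genes 11.3% behaved in this way. The 8 were the 5 integrin chains, Selplg, Vcam1 and Icam1, and the exception was Icam2. In bulk RNA, fewer cells of a type and less RNA per cell cannot be told apart. Over the 9 genes the median log2 fold change, heterozygous over wild-type, was −1.06, with values from −1.68 to −0.00054, while the median over all tested genes was 0.0048. In edgeR's quasi-likelihood test over all genes, at a Benjamini-Hochberg adjusted p of 0.05, Itgb2 and Vcam1 were called lower, which makes 2 of 9. The same call was made for 0.559% of all tested genes. Because the list was drawn up with this contrast known, nothing is read from these counts.

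**Figure D1:**
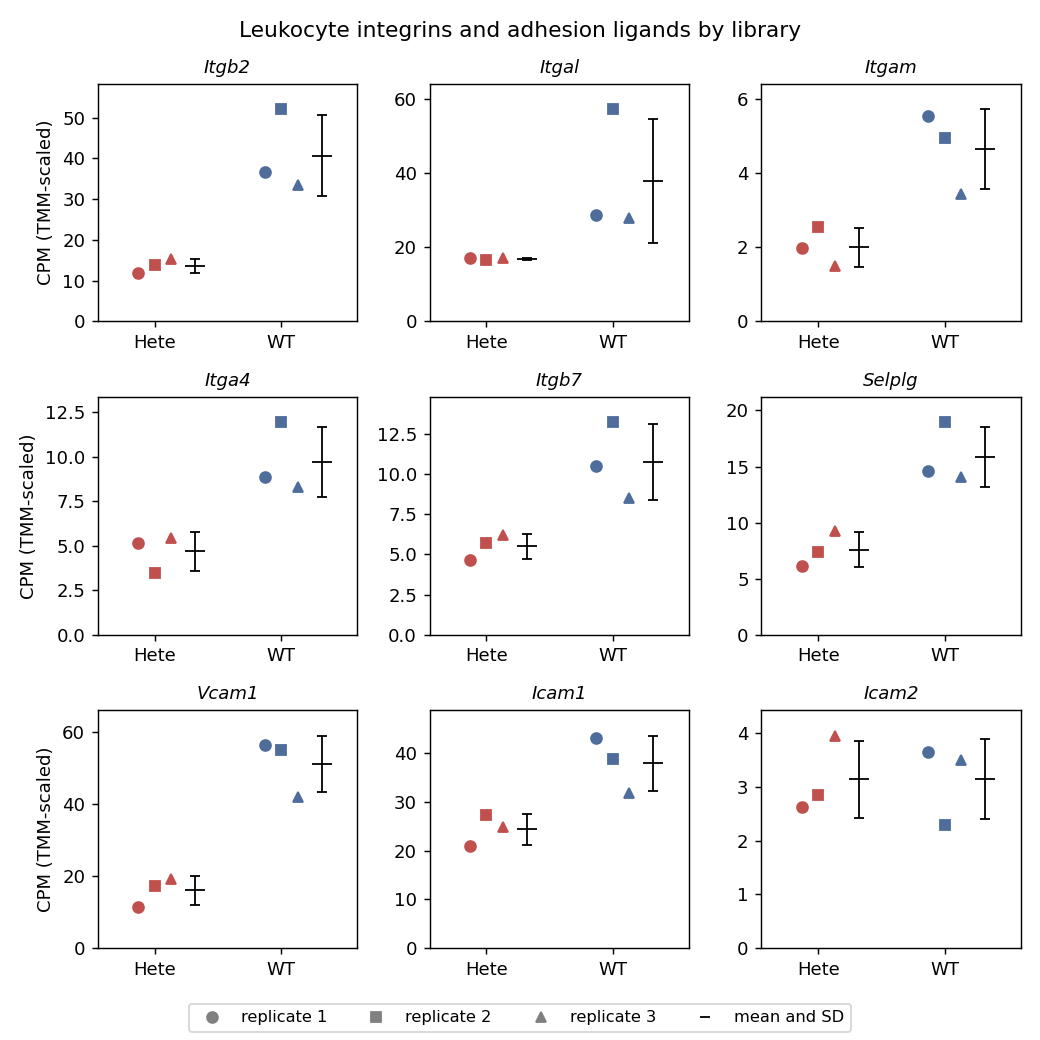
TMM-scaled CPM of each of the 9 genes (vertical axes, each from 0) in the 3 heterozygous (Hete) and 3 wild-type (WT) libraries. Symbols give the replicate and the bars the mean and SD, and only in the Icam2 panel do the groups overlap.

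Itgb2 encodes the β2 chain shared by LFA-1, Mac-1 and 2 further leukocyte integrins. It measured 11.8, 13.9 and 15.3 CPM in heterozygous replicates 1 to 3, against 36.5, 52.1 and 33.4 CPM in the wild-type replicates. The lowest wild-type library was 2.19 times the highest heterozygous one, the widest gap among the 9 genes. The means were 13.6 ± 1.73 CPM in heterozygous and 40.7 ± 9.98 CPM in wild-type livers (SD, n = 3 each), and the log2 fold change was −1.58 ± 0.19 (SE).

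Itgal encodes αL, the partner of β2 in LFA-1 on lymphocytes and other leukocytes. It measured 17.0, 16.5 and 17.1 CPM in the heterozygous libraries, against 28.6, 57.2 and 27.8 CPM in the wild-type libraries. The heterozygous libraries were nearly level, with an SD of 0.299 CPM, whereas wild-type replicate 2 was far above the other wild-type libraries and gave an SD of 16.8 CPM. The log2 fold change was −1.17 ± 0.29 with all libraries and −0.74 without wild-type replicate 2, which is the widest shift caused by a single library among the 9 genes.

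Itgam encodes αM (CD11b), the β2 partner in Mac-1 on monocytes, neutrophils and macrophages. Few reads lay behind its values, 26 to 42 counts per heterozygous library and 63 to 91 per wild-type library. Its level was 1.98, 2.54 and 1.49 CPM in heterozygous livers, against 5.55, 4.95 and 3.45 CPM in wild-type livers. The groups did not overlap, and the log2 fold change was −1.21 ± 0.29.

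Itga4 encodes α4, which pairs with β1 or β7. It stood at 5.12, 3.45 and 5.45 CPM in the heterozygous libraries, against 8.84, 11.9 and 8.32 CPM in the wild-type libraries, with a log2 fold change of −1.05 ± 0.23. Itgb7 encodes β7, which pairs with α4 or αE. Its values were 4.66, 5.69 and 6.19 CPM in heterozygous livers, against 10.5, 13.2 and 8.54 CPM in wild-type livers, and the log2 fold change was −0.96 ± 0.21. Both chains were lower in each heterozygous library than in any wild-type library, and both peaked in wild-type replicate 2. The other partner of α4, β1 (Itgb1), which most cell types make, averaged 139.5 ± 13.6 CPM in heterozygous and 135.5 ± 10.6 CPM in wild-type livers (log2 fold change 0.04 ± 0.12, edgeR adjusted p = 0.941). For Itgb1 the groups overlapped.

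Selplg encodes PSGL-1, the leukocyte glycoprotein bound by P-selectin and, with the right glycans, by the other selectins. It measured 6.12, 7.39 and 9.23 CPM in heterozygous replicates 1 to 3, against 14.6, 18.9 and 14.1 CPM in the wild-type replicates. The groups were apart, with means of 7.58 ± 1.57 CPM in heterozygous and 15.9 ± 2.68 CPM in wild-type livers and a log2 fold change of −1.06 ± 0.20. Its profile over the 6 libraries was nearly that of Itgb7: centred log2 CPM of the pair differed by a root mean square of 0.117, the smallest of the 36 pairs that the 9 genes make.

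Vcam1 encodes VCAM-1, the ligand of VLA-4 on activated endothelium and, in mouse liver, also on macrophages. It had 11.4, 17.3 and 19.3 CPM in heterozygous livers, against 56.4, 54.9 and 42.1 CPM in wild-type livers. The lowest wild-type library was 2.18 times the highest heterozygous one. Means were 16.0 ± 4.09 CPM in heterozygous and 51.1 ± 7.87 CPM in wild-type livers, a 3.19-fold lower level in heterozygous livers and the lowest log2 fold change of the list (−1.68 ± 0.20). Among the vascular ligands its profile was nearest to that of Itgb2 (root mean square difference 0.214) and farther from that of Icam1 (0.553).

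Icam1 encodes ICAM-1, the ligand of LFA-1 and Mac-1, which inflammatory cytokines induce on many cell types. It measured 21.0, 27.3 and 24.9 CPM in heterozygous livers, against 43.1, 38.7 and 31.8 CPM in wild-type livers. The groups were apart by a narrow gap, the lowest wild-type library being 1.16 times the highest heterozygous one. The log2 fold change was −0.63 ± 0.15. Icam2 encodes ICAM-2, a ligand of LFA-1 that endothelium carries constitutively. Its values were 2.62, 2.85 and 3.96 CPM in heterozygous livers, against 3.66, 2.29 and 3.50 CPM in wild-type livers, from 42 to 69 counts per library. The groups overlapped fully and the means were 3.14 ± 0.72 CPM in heterozygous and 3.15 ± 0.75 CPM in wild-type livers. The log2 fold change was −0.00054 ± 0.28 with a 95% interval of −0.64 to 0.64, so that at this depth a difference of up to that size in either direction would not be seen, and the sign turned with other scalings.

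Levels of different genes were compared per kilobase of exon, with exon lengths from GENCODE M21 (GRCm38). On this scale Icam1 was highest in both groups, at 9.63 ± 1.25 CPM per kb in heterozygous and 14.9 ± 2.24 CPM per kb in wild-type livers, and Itgb2 came next, at 4.60 ± 0.58 CPM per kb in heterozygous and 13.7 ± 3.36 CPM per kb in wild-type livers. In heterozygous livers the order went on with Selplg (4.09), Vcam1 (3.21), Itgal (2.64), Icam2 (2.45), Itgb7 (2.06), Itga4 (0.479) and Itgam (0.407 CPM per kb). In that order the libraries of neighbours overlapped except between Icam1 and Itgb2 and between Itgb7 and Itga4. In wild-type livers Vcam1 (10.3) came before Selplg (8.55), followed by Itgal (5.94), Itgb7 (4.01), Icam2 (2.46), Itga4 (0.992) and Itgam (0.944 CPM per kb). There the neighbours overlapped except between Itgb7 and Icam2 and between Icam2 and Itga4. Among the α chains that pair with β2, Itgal was ahead of Itgax, Itgam and Itgad in both groups, with Itgax at 1.11 ± 0.75 and 3.18 ± 0.24 and Itgad at 0.0274 ± 0.0137 and 0.0354 ± 0.0089 CPM per kb in heterozygous and wild-type livers.

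The 9 genes also shared part of their order among libraries. Within the heterozygous group, replicate 3 was highest for 7 genes and replicate 1 lowest for 6. Among wild-type libraries, replicate 2 was highest for 5 genes (Itgb2, Itgal, Itga4, Itgb7 and Selplg) and replicate 1 for the other 4 (Itgam, Vcam1, Icam1 and Icam2), while replicate 3 was lowest for all except Icam2. Wild-type replicate 2 also had the highest summed levels of the pan-leukocyte, Kupffer cell, monocyte, T and NK cell, B cell and dendritic cell markers. The neutrophil sum went the other way among wild-type libraries, lowest in replicate 2 (23.6 CPM) and highest in replicate 1 (30.3 CPM). The part of leukocyte content in the order of the 9 genes was not tested.

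Markers of leukocytes were lower in the same livers, and their part in the differences of the integrin genes was not tested. Of all tested genes, edgeR called 0.559% lower, and 49% had a negative fold change. Of 8 pan-leukocyte markers, 5 fell in edgeR's test (Cd53, Laptm5, Coro1a, Rac2 and Arhgdib) and all 8 had a negative fold change. Their sum ranged from 193 to 226 CPM in heterozygous and from 294 to 410.1 CPM in wild-type livers. Monocyte and recruited macrophage markers summed to 89.3 to 118.5 CPM in heterozygous and 240.6 to 400.2 CPM in wild-type livers, with 3 of 8 lower at the threshold. Lyz2 held most of this sum, at 81.9 ± 11.6 CPM in heterozygous and 262 ± 81.2 CPM in wild-type livers. All 8 of these markers had a negative fold change. Neutrophil markers summed to 8.62 to 12.4 CPM in heterozygous and 23.6 to 30.3 CPM in wild-type livers, with 1 of 5 tested markers called lower, and Ly6g, which defines neutrophils, was at 0 in all heterozygous libraries and at 0.057 CPM on average in the wild-type ones.

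Among the remaining leukocyte lists, Kupffer cell markers summed to 93.6 to 133.8 CPM in heterozygous and 182.6 to 382.7 CPM in wild-type livers, with 0 of 7 past the threshold in edgeR, 5 of 7 at an unadjusted p under 0.05, and 3 of 7 lower in DESeq2. Over all tested genes, 1677 of 12706 had an unadjusted p under 0.05, and DESeq2 called 3.56% lower. Cd5l held most of the Kupffer cell sum, at 77.5 ± 13.9 CPM in heterozygous and 181 ± 68.4 CPM in wild-type livers. Of the 7 markers, 6 had a negative and 1 (Folr2) a positive fold change. T and NK cell markers summed to 12.7 to 15.2 and 19.1 to 30.0 CPM, and dendritic cell markers to 11.1 to 19.2 and 23.3 to 25.4 CPM, in heterozygous and wild-type livers. For B cell markers the groups overlapped, at 3.33 to 5.47 CPM in heterozygous and 2.87 to 7.29 CPM in wild-type livers. Endothelial markers went from 204.8 to 271.8 CPM in heterozygous and from 167.1 to 210.8 CPM in wild-type livers, overlapping, with 7 of 8 fold changes positive. The negative one was Lyve1, at 8.90 ± 5.36 CPM in heterozygous and 20.4 ± 8.31 CPM in wild-type livers. Stellate cell markers summed to 293 to 346 CPM in heterozygous and 346.2 to 433 CPM in wild-type livers, groups that just failed to overlap. Dcn held most of this sum, at 175.5 ± 26.9 CPM in heterozygous and 243.6 ± 28.3 CPM in wild-type livers. Of the 6 stellate cell markers, 4 had negative and 2 positive fold changes, and only 1 (Dcn) was apart between the groups.

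**Figure D2:**
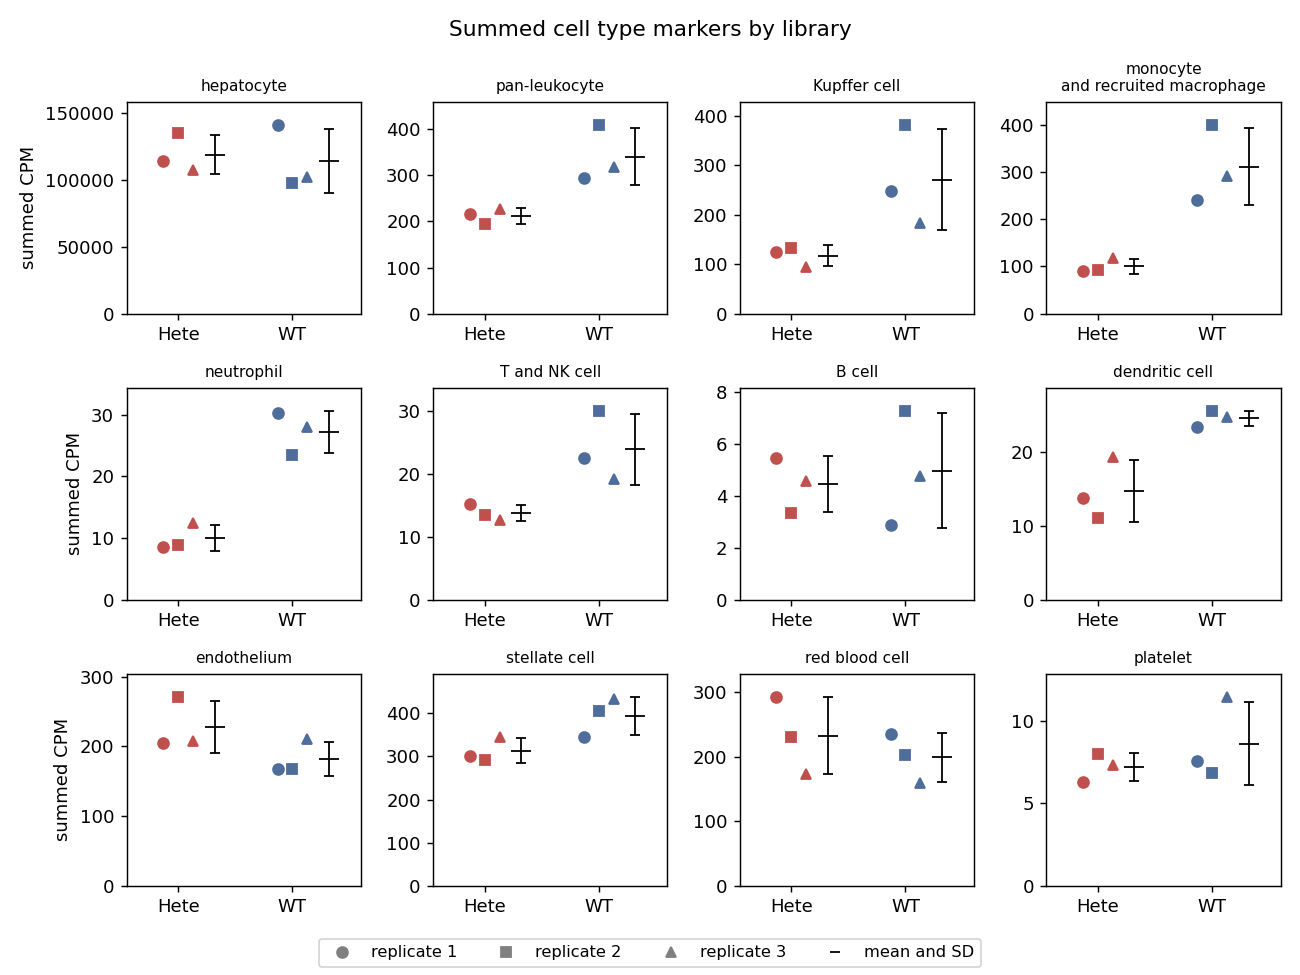
Summed TMM-scaled CPM of each cell type marker list (vertical axes, each from 0) in heterozygous (Hete) and wild-type (WT) libraries, with replicate symbols and the mean and SD. Sums of the leukocyte lists other than the B cell list are lower in all heterozygous libraries. The hepatocyte, endothelial, red blood cell and platelet sums overlap. Cd5l makes up most of the Kupffer cell sum, Lyz2 most of the monocyte sum and Dcn most of the stellate cell sum.

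Each gene was therefore also set against the leukocyte markers of its own library. Lcp1 made up 56.5 ± 3.6% of the pan-leukocyte sum in heterozygous and 39.2 ± 1.9% in wild-type livers, and it differed little between the groups (log2 fold change −0.16 ± 0.15). It was left out of the sum after its values had been seen, which leaves 7 markers with a sum of 92.1 ± 10.4 CPM in heterozygous and 207 ± 37.6 CPM in wild-type livers. The ratio of means of this sum was 0.445, heterozygous over wild-type, so a gene with equal CPM in both groups comes out higher on this scale. The share of all genes that would be apart on it was not computed. Relative to these 7 markers the list split into 3 sets. Itgb2 and Vcam1 remained lower in all heterozygous libraries, 5 genes overlapped between the groups with ratios of means between 0.976 and 1.15, and Icam1 and Icam2 were higher in all heterozygous libraries.

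Itgb2 stood at 13.9%, 15.9% and 14.7% of the summed CPM of the 7 markers in heterozygous replicates 1 to 3, against 19.9%, 20.8% and 17.9% in the wild-type replicates. Vcam1 stood at 13.4%, 19.9% and 18.5% in heterozygous livers, against 30.6%, 22.0% and 22.6% in wild-type livers. The ratios of the means were 0.759 for Itgb2 and 0.690 for Vcam1, less far from 1 than the folds in CPM (0.336 and 0.313). The monocyte and neutrophil marker sums had ratios of means of 0.323 and 0.365, near these folds. Those of the Kupffer cell, T and NK cell, dendritic cell and B cell sums were 0.432, 0.578, 0.599 and 0.898. Itgb2 and Vcam1 were not set against these sums, so their place relative to myeloid cells was not tested. The 5 overlapping genes were Itgal (18.5 ± 1.8% in heterozygous and 17.8 ± 4.4% in wild-type livers), Itgam (2.23 ± 0.75% in heterozygous and 2.28 ± 0.64% in wild-type livers), Itga4 (5.07 ± 1.04% in heterozygous and 4.68 ± 0.19% in wild-type livers), Itgb7 (5.99 ± 0.53% in heterozygous and 5.19 ± 0.57% in wild-type livers) and Selplg (8.18 ± 0.88% in heterozygous and 7.68 ± 0.21% in wild-type livers).

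Icam1 stood at 24.7%, 31.4% and 23.9% of the 7 markers in heterozygous livers, against 23.4%, 15.5% and 17.1% in wild-type livers. Icam2 stood at 3.08%, 3.27% and 3.80% in heterozygous livers, against 1.99%, 0.913% and 1.88% in wild-type livers, so that its mean ratio was 2.12 times higher in heterozygous livers while its mean CPM was nearly equal. With Lcp1 kept in the sum, the ratios of means of Itgal, Itgam, Itga4, Itgb7 and Selplg lay between 0.692 and 0.827, that of Icam1 was 1.02, and Icam1 and Icam2 overlapped between the groups, while Itgal, Itga4 and Selplg no longer did. Itgb2 (0.544) and Vcam1 (0.497) were lower in all heterozygous libraries with either sum, Itgam and Itgb7 overlapped with either sum, and the place of the other 5 genes depends on this choice. Set against the 8 endothelial markers, Vcam1 stood at 7.08 ± 1.96% in heterozygous and 28.8 ± 7.66% in wild-type livers, Icam1 at 10.8 ± 1.07% in heterozygous and 21.3 ± 5.55% in wild-type livers, and Icam2 at 1.41 ± 0.44% in heterozygous and 1.74 ± 0.42% in wild-type livers. On this scale Vcam1 and Icam1 were lower in all heterozygous libraries and Icam2 overlapped, so Icam1 stood on opposite sides relative to the 7 leukocyte and the 8 endothelial markers. The endothelial sum had a ratio of means of 1.25, heterozygous over wild-type, while the leukocyte sum was lower in heterozygous livers. These scales therefore shift any gene in opposite directions.

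**Figure D3:**
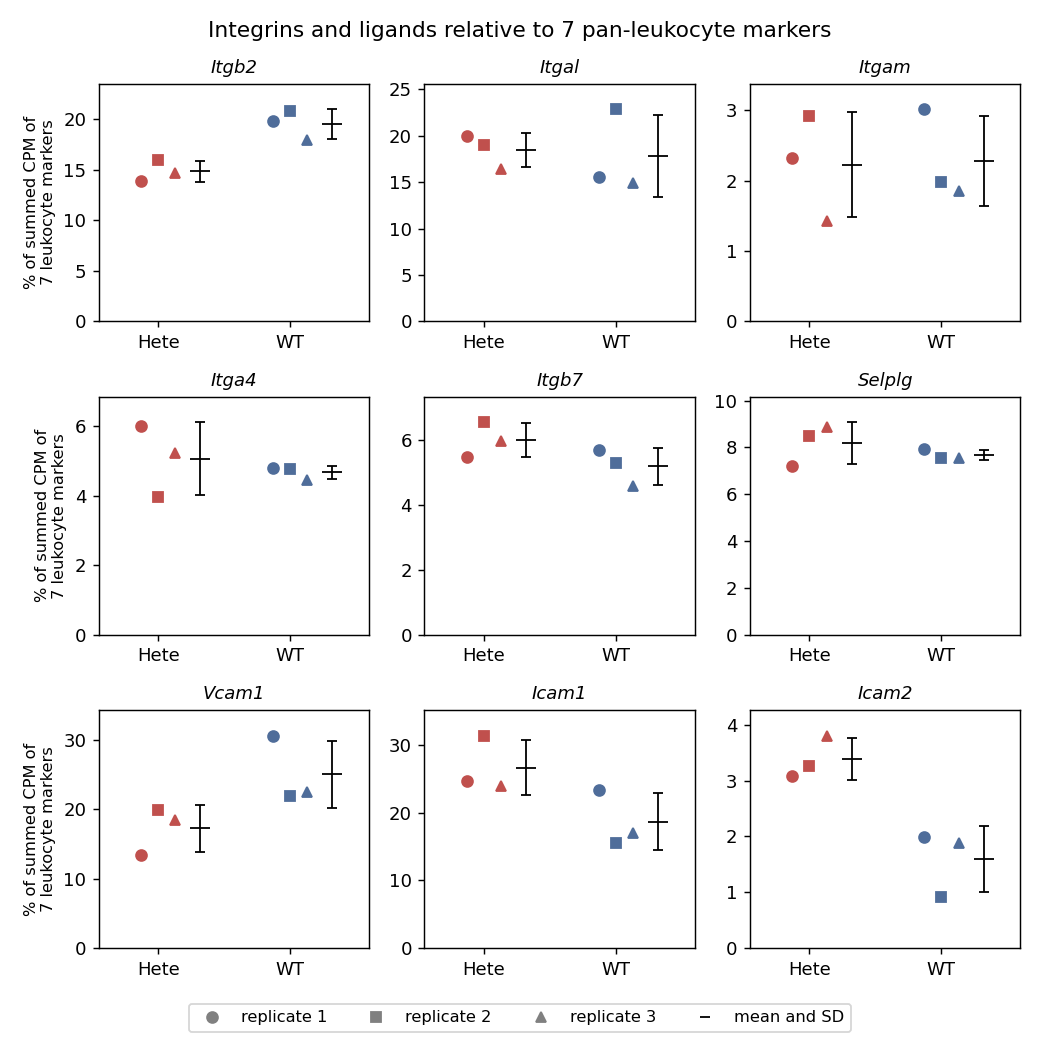
Level of each gene as a percentage of the summed CPM of 7 pan-leukocyte markers in the same library (vertical axes, each from 0), for heterozygous (Hete) and wild-type (WT) livers, with replicate symbols and the mean and SD. Itgb2 and Vcam1 are lower and Icam1 and Icam2 higher in all heterozygous libraries, and the other 5 genes overlap. The sum of the 7 markers is itself lower in heterozygous livers, which raises every gene on this scale.

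Other genes of leukocyte adhesion, 72 in 6 groups, were then examined in the fit over all genes. The table held 71 of them (Glycam1 was not analysed here), and 61 passed the filter on low counts. In edgeR 0 of the 61 passed the threshold in either direction, while 19 had an unadjusted p under 0.05. Of all 12706 tested genes, 1677 had an unadjusted p under 0.05. DESeq2 called 6, all lower and among them Fyb, Cd44, Fermt3, Apbb1ip and Itgax, and limma-voom 0. DESeq2 called 3.56% of all genes lower. The median log2 fold change was −0.14. Libraries of the groups did not overlap with the heterozygous ones lower for 17 of the 61, or 27.9%, beside 11.3% of all tested genes, and with the heterozygous ones higher for 3 (Itga10, Cd99l2 and Fermt2), beside 7.05% of all tested genes. The share of all tested genes called higher by edgeR was 0.0236%.

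Among the remaining integrin chains 18 of 21 were tested, with 11 negative and 7 positive fold changes. Itgax, which encodes αX (CD11c) of dendritic cells and macrophages and lies beside Itgam and Itgad on chromosome 7, measured 3.67, 2.30 and 8.49 CPM in heterozygous livers, against 12.7, 13.9 and 14.8 CPM in wild-type livers (log2 fold change −1.51 ± 0.43, edgeR adjusted p = 0.176). Heterozygous replicate 3 lay between its group and the wild-type libraries, and without it Itgax was called lower in edgeR. Itga9, whose α9 chain pairs with β1, stood at 18.2 ± 4.32 CPM in heterozygous and 28.5 ± 3.98 CPM in wild-type livers (−0.65 ± 0.18, edgeR adjusted p = 0.148). Itga2, a collagen-binding chain, stood at 0.489 ± 0.177 CPM in heterozygous and 1.49 ± 0.892 CPM in wild-type livers (−1.58 ± 0.53, edgeR adjusted p = 0.222). None of these 3 passed the threshold with all libraries.

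Of the selectins, Selp, which encodes P-selectin of endothelium and platelets, overlapped between the groups, at 1.44 ± 0.59 CPM in heterozygous and 1.35 ± 0.22 CPM in wild-type livers (0.09 ± 0.37, edgeR adjusted p = 0.960). Sele, which encodes E-selectin of activated endothelium, did not pass the filter, at 0.118 ± 0.062 CPM in heterozygous and 0.225 ± 0.046 CPM in wild-type livers.

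For proteins that carry selectin-binding glycans, 5 genes were tested and their median log2 fold change was −0.99. Cd44, also a hyaluronan receptor, measured 8.15, 9.27 and 15.0 CPM in heterozygous livers, against 20.7, 35.8 and 22.9 CPM in wild-type livers (−1.29 ± 0.29, edgeR adjusted p = 0.103). Spn, which encodes CD43 of leukocytes, stood at 2.10 ± 0.20 CPM in heterozygous and 4.17 ± 1.39 CPM in wild-type livers (−0.99 ± 0.29, edgeR adjusted p = 0.161), and Cd34, a sialomucin of endothelium and progenitor cells, at 1.79 ± 0.72 CPM in heterozygous and 3.76 ± 0.80 CPM in wild-type livers (−1.07 ± 0.34, edgeR adjusted p = 0.190). Each of the 3 was apart between the groups. Enzymes that build the selectin-binding glycans had a median of −0.37 over 8 tested genes, with 1 of 8 apart between the groups. The galactosyltransferase gene B4galt1 stood at 44.6 ± 7.35 CPM in heterozygous and 68.1 ± 20.4 CPM in wild-type livers, the fucosyltransferase gene Fut4 at 0.309 ± 0.198 CPM in heterozygous and 0.642 ± 0.038 CPM in wild-type livers, and the core 2 branching enzyme gene Gcnt1 at 0.879 ± 0.399 CPM in heterozygous and 1.36 ± 0.10 CPM in wild-type livers (edgeR adjusted p = 0.280, 0.489 and 0.586).

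Of the vascular and junctional adhesion molecules besides the described ligands, 14 were tested, 2 of them had an unadjusted p under 0.05, and the median log2 fold change was −0.11. Among all tested genes, 1677 of 12706 had such a p. Thy1, a glycoprotein of T cells and fibroblasts in the mouse, stood at 3.32 ± 0.95 CPM in heterozygous and 5.40 ± 0.40 CPM in wild-type livers (−0.70 ± 0.25, edgeR adjusted p = 0.254). Pecam1, the junctional CD31 of endothelium that platelets and leukocytes carry too, stood at 18.6 ± 2.10 CPM in heterozygous and 23.1 ± 0.75 CPM in wild-type livers (−0.31 ± 0.12, edgeR adjusted p = 0.314). Cd99l2, a relative of CD99, stood at 28.2 ± 3.30 CPM in heterozygous and 23.6 ± 3.23 CPM in wild-type livers (0.26 ± 0.14, edgeR adjusted p = 0.501). None passed the threshold.

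Genes tied to the switch of integrins to the binding state were all tested, 14 in number, and 5 had an unadjusted p under 0.05. Such a p was found for 1677 of all 12706 tested genes. The 14 were not split into activators and inhibitors of integrins. Fermt3, the kindlin of blood cells, measured 8.56, 7.39 and 9.23 CPM in heterozygous livers, against 14.6, 25.0 and 14.8 CPM in wild-type livers (−1.11 ± 0.23, edgeR adjusted p = 0.0635). Apbb1ip, which encodes the RAP1 effector RIAM, stood at 2.95 ± 0.41 CPM in heterozygous and 6.66 ± 1.49 CPM in wild-type livers (−1.17 ± 0.24, edgeR adjusted p = 0.0606), and Fyb, the adaptor ADAP of T and myeloid cells, at 11.7 ± 1.99 CPM in heterozygous and 27.1 ± 8.39 CPM in wild-type livers (−1.21 ± 0.23, edgeR adjusted p = 0.0561). All 3, picked for their small p-values, were apart between the groups but missed the threshold. They passed it when no filter on low counts was used, a setting that called 1.14% of all genes lower. DESeq2, which called 3.56% of all genes lower, called these 3 too, and no other setting did. Over the 14 genes the log2 fold changes ran from −1.21 to 0.27 with a median of −0.14, and 11 were negative. The other 2 genes apart between the groups with the heterozygous libraries lower were Rap1b, a small GTPase that activates integrins, at 47.6 ± 1.81 CPM in heterozygous and 60.9 ± 1.6 CPM in wild-type livers (−0.35 ± 0.10, edgeR adjusted p = 0.139), and the adaptor gene Skap2, at 17.5 ± 1.77 CPM in heterozygous and 23.4 ± 0.52 CPM in wild-type livers (−0.42 ± 0.12, edgeR adjusted p = 0.144). Fermt2, the kindlin of non-blood cells, was apart in the other direction, at 110.7 ± 13.7 CPM in heterozygous and 91.8 ± 5.80 CPM in wild-type livers (0.27 ± 0.12, edgeR adjusted p = 0.379). For Tln1 (talin) the groups overlapped, at 118.2 ± 2.09 CPM in heterozygous and 134.2 ± 16.6 CPM in wild-type livers. Rap1b, Skap2, Fermt2 and Tln1 were named after their values were seen.

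**Figure D4:**
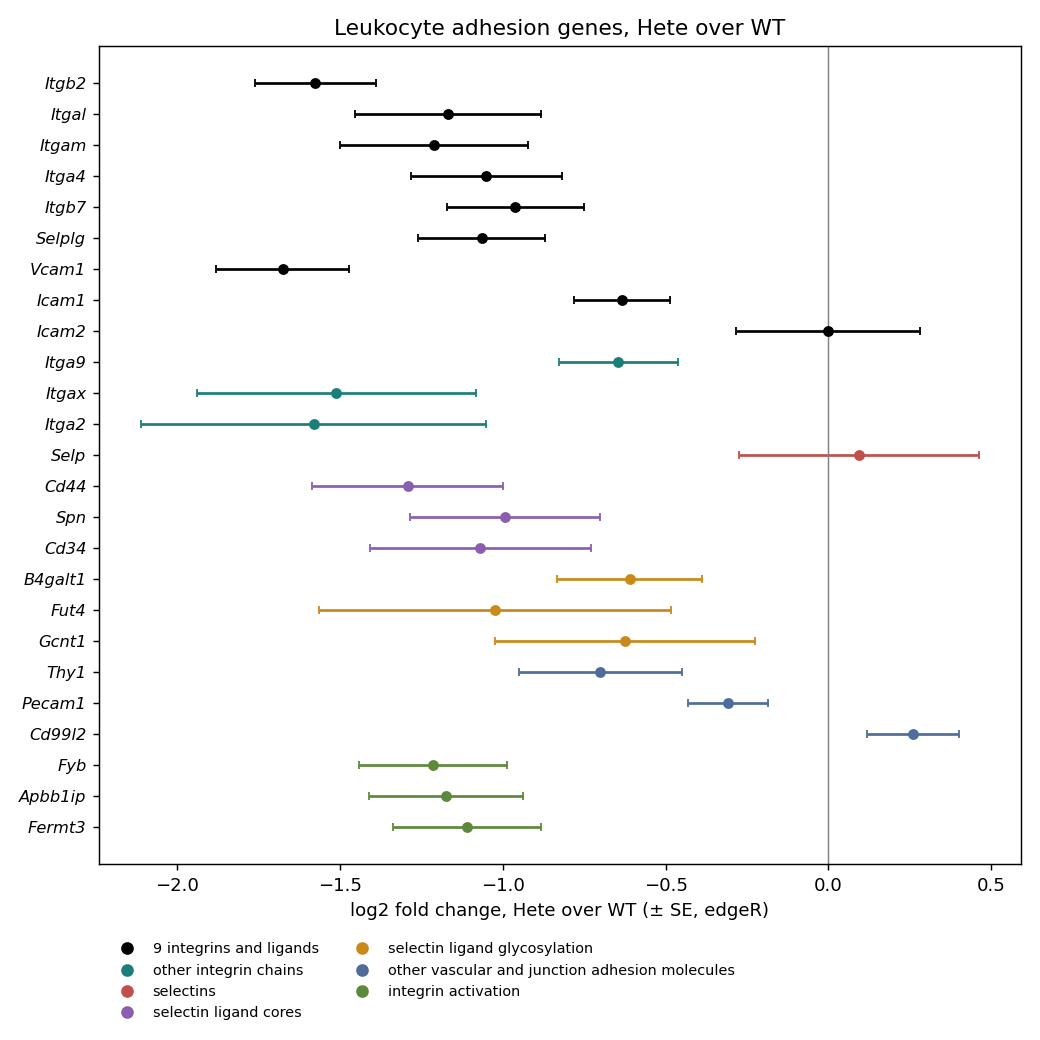
Log2 fold change, heterozygous over wild-type, with its SE from edgeR (horizontal axis) for the 9 integrins and ligands and for up to 3 of the genes with the smallest p-values in each of 6 further groups of adhesion genes. Itgb2 and Vcam1 have the lowest values among the 9, Icam2 and Selp lie near 0, and Cd99l2 is on the positive side.

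The genes whose profiles came nearest to the described ones were sought over all tested genes, by the root mean square difference of centred log2 CPM over the 6 libraries. Nearest to Itgb2 were the Fc receptor genes Fcgr4 (0.118) and Fcgr3 (0.147), Bcl2a1d (0.119), the haem oxygenase gene Hmox1 (0.135) and the lectin receptor gene Clec4a3 (0.145), against a median of 0.830 over all genes. Of these 5, Fcgr4, Hmox1 and Fcgr3 fell in edgeR's test, though the Fc receptor genes and Bcl2a1d have close copies with which reads may have been shared. Nearest to Vcam1 were Nlrc4 (0.141), Stx3 (0.171), Crispld2 (0.177), Sla (0.184) and Trpv2 (0.190), with a median of 0.908 over all genes. Of these, Trpv2 was called lower. Nearest to Icam1 were Nfkb2 (0.0494), which encodes an NF-κB subunit, Sbk1 (0.0583), Kctd17 (0.0717), Ly6e (0.0807) and Plekha4 (0.0873), with a median of 0.415 over all genes, and Ly6e was called lower. Nfkb2 measured 13.1 CPM on average in heterozygous and 20.7 CPM in wild-type livers (log2 fold change −0.66 ± 0.16, edgeR adjusted p = 0.0992). Likeness here includes the difference between the groups, which all of these genes share in direction with their partner.

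Single libraries moved the sizes of the log2 fold changes. The direction of 8 of the 9 genes stayed negative, which tests nothing. Their groups did not overlap, so leaving out 1 library could hardly turn the sign. With each of the 6 libraries left out in turn, the log2 fold change ran from −1.70 to −1.35 for Itgb2, from −1.83 to −1.47 for Vcam1 and from −0.74 to −0.51 for Icam1, and from −0.20 to 0.14 for Icam2. The number of the 9 genes past edgeR's threshold in these fits lay between 0 and 3. It was 0 without heterozygous replicate 1, heterozygous replicate 2 or wild-type replicate 1, 1 (Itgb2) without wild-type replicate 2, 2 without wild-type replicate 3 and 3 (with Selplg) without heterozygous replicate 3. DESeq2 called 8 of the 9, all except Icam2, beside 3.56% of all genes it called lower.

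**Figure D5:**
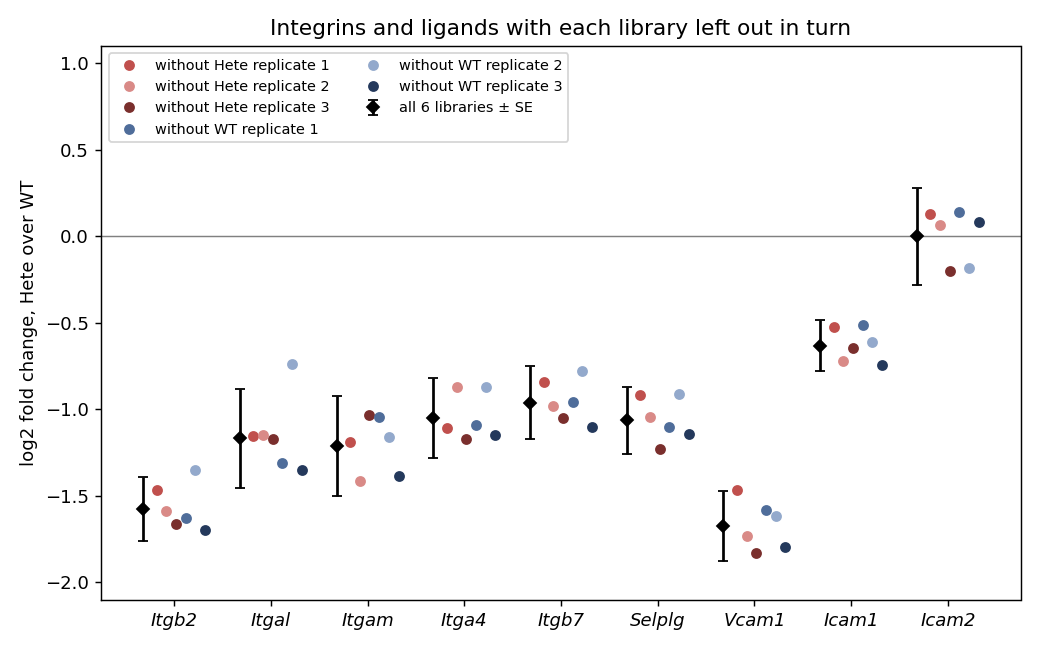
Log2 fold change of the 9 genes, heterozygous over wild-type (vertical axis), with all 6 libraries (diamond, with SE) and with each library left out in turn (circles). Itgal moves most, to −0.74 without wild-type replicate 2, and Icam2 lies on both sides of 0.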

How the data were processed

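Whole-liver RNA of 6 mouse samples (500 ng per stranded poly(A) library, per the labels' protocols) was analysed from 1 deposited table of raw read counts per gene symbol, with no normalization. The submitters' processing notes name the build GRCm39 and the tools Trimmomatic 0.36, HISAT2 2.2.1.0 and HTSeq 0.9.1. The sources used here do not give the annotation or the strand setting. Reads of Itga4, Vcam1 and Icam1 may therefore include some of overlapping genes on the opposite strand, and reads of Itgam some of 1 gene on the same strand. Titles gave groups and replicate numbers. The labels name no separate animals, so the p-values may reflect technical spread only.

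Genes were filtered by group (filterByExpr), TMM-scaled and tested in edgeR 4.0.16 (R 4.3.3, robust glmQLFit, glmQLFTest), with Benjamini-Hochberg adjustment over 12706 genes at 0.05. Each SE was obtained by dividing the absolute log2 fold change by the square root of F, and log2 CPM used a prior count of 2. Alternatives were DESeq2 1.42.0, limma-voom (limma 3.58.1, robust), other scalings and filters, a non-robust fit, a replicate block and left-out libraries. In simulated counts of 12706 genes for this comparison, edgeR recovered 61 of 100 genes changed by 1 on the log2 scale and 92 of 100 changed by 2. It also called 14 genes that had not been changed.

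The 9 genes, the lists and the tests were chosen with earlier results of these data known. The text names the 9 genes, Cebpb, Clec4f, the 3 smallest p-values in each group of other adhesion genes, and the 5 nearest profiles of Itgb2, Vcam1 and Icam1. Of these, 1 gene is not reported here. Genes outside this rule were chosen after their values were seen.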

Additional observations from a re-analysis of the deposited data

How the results depend on the processing

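With 74 of all genes called in the main analysis, 37 were called with upper-quartile scaling, 48 with at least 1 CPM in 3 samples, 211 with no filter on low counts, 534 with DESeq2, 46 with limma-voom, 20 with a non-robust fit, 0 with the replicate block (1427 at an unadjusted p under 0.05) and 4 with 2 libraries left out at once (wild-type replicate 1, heterozygous replicate 2). With 1 library left out, 0 to 122 genes were called. Of the 9 integrins and ligands, 2 were called in the main analysis, 8 in DESeq2, 0 with the replicate block, 0 with these 2 left out and 0 to 3 with 1 library left out. Of the other adhesion genes, 0 were called lower in the main analysis, 3 with no filter on low counts, 6 in DESeq2 and 0 to 1 with 1 library left out, and 0 were called higher under any alternative run. The cause of these shifts was not tested. Same-numbered libraries deviated from their group means with correlations of −0.21, −0.31 and 0.19, so the numbers were not taken as pairs, and the block result is given as a setting only.

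Log2 fold changes of the 8 genes other than Icam2 were negative in all 15 alternatives. The groups did not overlap for these 8 genes, so this sign was largely set in advance. Icam2 turned positive at 0.0076 with RLE scaling, 0.0028 with upper-quartile scaling, 0.019 with no filter, 0.0076 with DESeq2, 0.014 with limma-voom, 0.0036 with the replicate block, 0.13 and 0.067 without heterozygous replicates 1 and 2, 0.14 and 0.085 without wild-type replicates 1 and 3, and 0.20 with the same 2 libraries left out. With 1 library left out it ran from −0.20 to 0.14. Depth limits Itgam and Icam2 most, at 26 to 91 counts per library.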

Other observations

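Of the 18 tested integrin chains outside the list of 9, 11 had negative and 7 positive log2 fold changes, from −1.58 to 0.54, and 0 passed the threshold in edgeR, with 7 at an unadjusted p under 0.05 and 1 (Itgax) called in DESeq2. Over all tested genes, 1677 of 12706 had an unadjusted p under 0.05, and DESeq2 called 3.56% lower. The integrin chains described here were named after their values were seen. Itga5, the fibronectin receptor chain, measured 34.5, 40.7 and 30.4 CPM in heterozygous livers, against 28.1, 24.7 and 31.4 CPM in wild-type livers, with overlapping groups (log2 fold change 0.33 ± 0.14, edgeR adjusted p = 0.373). Itga10, a collagen-binding chain, stood at 5.66 ± 0.56 CPM in heterozygous and 3.89 ± 0.26 CPM in wild-type livers, with no overlap (0.54 ± 0.19, edgeR adjusted p = 0.256). Itgb8, which pairs with αv, stood at 0.311 ± 0.236 CPM in heterozygous and 0.808 ± 0.072 CPM in wild-type livers, with no overlap (−1.35 ± 0.55, edgeR adjusted p = 0.329). Itga8, a chain of stellate and smooth muscle cells, overlapped at 5.79 ± 2.30 CPM in heterozygous and 8.59 ± 2.74 CPM in wild-type livers (−0.57 ± 0.33, edgeR adjusted p = 0.546). Itga1, another collagen-binding chain, stood at 11.3 ± 2.40 CPM in heterozygous and 11.1 ± 1.15 CPM in wild-type livers, and Itgav at 14.4 ± 2.11 CPM in heterozygous and 14.9 ± 1.26 CPM in wild-type livers. The platelet chain Itga2b stood at 5.86 ± 0.86 CPM in heterozygous and 5.52 ± 0.99 CPM in wild-type livers. Ppbp, a chemokine gene of platelets, measured 0.252 ± 0.141 CPM in heterozygous and 1.49 ± 0.84 CPM in wild-type livers (−2.53 ± 0.58, edgeR adjusted p = 0.0876). It rested on few reads, with 4, 2 and 7 counts in heterozygous and 16, 19 and 45 in wild-type libraries. The remaining platelet markers overlapped between the groups, as did the platelet sum. Mean CPM in heterozygous and wild-type livers was 0.846 and 1.24 for Pf4, 0.216 and 0.134 for Gp9, and 0.0385 and 0.255 for Gp1bb.

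The other chain that pairs with β7, αE (Itgae), is known from T cells at epithelia and from cross-presenting dendritic cells. It measured 0.582, 0.909 and 1.09 CPM in heterozygous livers, against 1.22, 1.74 and 2.46 CPM in wild-type livers, with no overlap (log2 fold change −1.07 ± 0.39, edgeR adjusted p = 0.266).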
